A study of Mus musculus with 5 samples.

Results

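Islet endothelial cells were the 179 cells annotated as endothelial in a single-cell RNA study of isolated mouse pancreatic islets, out of 18221 annotated cells (0.982%). Members were chosen by the deposited cell type alone. All 179 made up cluster 12 of the 14 deposited clusters, and no cell of another type was in that cluster. The study compared mice with floxed Atf6a alleles (Atf6a fl/fl, labelled ATF6a Control) with mice that carried the same floxed alleles and RIP-Cre (labelled ATF6a cKO). ATF6α is a membrane-bound transcription factor of the endoplasmic reticulum that is released when unfolded proteins accumulate. RIP-Cre is a recombinase under a rat insulin promoter, so the deletion is directed at insulin-producing beta cells and not at endothelium. From 6 weeks of age, mice of both genotypes were kept on a normal diet (ND, 10 kcal% fat) or on a high-fat diet (HFD, 60 kcal% fat), and they were 22 weeks old at islet isolation. Each library held hand-picked islets pooled from 2 mice. Control ND, control HFD and cKO HFD had 1 library each, all of batch 1, and cKO ND had 2 libraries, 1 of batch 1 and 1 of batch 2.

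Endothelial cells line the capillaries that run through each islet. Islet capillaries are dense and fenestrated, take up secreted hormones, carry glucose and oxygen to the endocrine cells, and lay down the basement membrane on which beta cells rest. Beta cells in turn secrete vascular endothelial growth factor A, which maintains this capillary bed. Pecam1, a junctional adhesion molecule of endothelial cells, is the usual marker. The tables analysed here hold no expression values, so the annotation could not be set against Pecam1 or any other gene, and no gene is reported as higher or lower.

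Endothelial cells numbered 80 of 7998 cells in the control ND library, 71 of 6667 in control HFD, 15 of 2483 in cKO HFD and 13 of 1033 in the batch 2 cKO ND library. The batch 1 cKO ND library held only 40 cells, and none was endothelial. That count allows a share of up to 7.5%, which lies above the share in each of the other 4 libraries, so this library carries little information on endothelium. With its 31 beta cells, 0.563 endothelial cells would be found at the control ND rate per beta cell and 1.71 at the rate of the batch 2 library. It was therefore given a value and a limit but did not enter the ratios between groups, a choice made with its count known. Depth per cell is unknown, and intervals are exact 95% binomial intervals that cover counting error only, not differences between mice or islet preparations. Each ratio describes cells recovered from dissociated islets, and its relation to vessel density in the pancreas was not tested.

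Against beta cells, endothelial cells were most frequent in the batch 2 cKO ND library and least frequent in cKO HFD. There were 1.82 endothelial cells per 100 beta cells in control ND (1.44 to 2.26), 1.47 in control HFD (1.14 to 1.85), 5.51 in batch 2 cKO ND (2.89 to 9.604) and 0.717 in cKO HFD (0.400 to 1.18). The batch 1 cKO ND library had 0 per 31 beta cells, for which the limit of 3 cells is 9.68 per 100 and the exact upper bound 12.6. The mean of the pair of cKO ND libraries was 2.75 ± 3.895 (SD, n = 2). The intervals of the 2 control libraries overlapped, whereas the batch 2 cKO ND interval lay above those of control ND, control HFD and cKO HFD. Beta cells were 236 of 1033 cells in batch 2 cKO ND, a smaller part than in the others. They were 2093 of 2483 in cKO HFD, 4406 of 7998 in control ND and 4841 of 6667 in control HFD. Among all cells, endothelial cells were 1.26% in batch 2 cKO ND (0.672 to 2.14%) and 1.00% in control ND (0.794 to 1.24%). The share was 1.06% in control HFD (0.833 to 1.34%) and 0.604% in cKO HFD (0.338 to 0.994%). These intervals overlapped, although the interval of the ratio between the 2 HFD libraries, given below, excluded 0.

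When all hormone-secreting cells formed the denominator, the libraries lay closer together. Per 100 endocrine cells (beta, alpha, delta and PP cells, which secrete insulin, glucagon, somatostatin and pancreatic polypeptide), there were 1.05 endothelial cells in control ND (0.834 to 1.31), 1.15 in control HFD (0.894 to 1.45), 1.38 in batch 2 cKO ND (0.733 to 2.37) and 0.630 in cKO HFD (0.352 to 1.04). The cKO HFD library was the lowest of these 4, with an interval that overlapped each of the others. The highest-to-lowest order of the 4 libraries was not the same as against beta cells, since control HFD lay above control ND.

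Immune cells, the most numerous non-endocrine type in these preparations, gave another order again. There were 0.402 endothelial cells per immune cell in control ND (0.306 to 0.524), 0.252 in control HFD (0.191 to 0.328), 0.224 in cKO HFD (0.119 to 0.396) and 0.176 in batch 2 cKO ND (0.0894 to 0.319). The batch 1 cKO ND library had 0 endothelial against 7 immune cells, which allows up to 0.429. On this scale control ND was the highest, although the intervals of these 4 libraries overlapped. Among all non-endocrine cells (immune, endothelial, acinar and those annotated as neuron), endothelial cells were 20.1% in control ND (16.3 to 24.4%), 15.04% in control HFD (11.9 to 18.6%), 14.6% in cKO HFD (8.39 to 22.9%) and 14.1% in batch 2 cKO ND (7.74 to 23.0%). These 4 shares overlapped in their intervals. The denominators differed in acinar cells, which numbered 107 in control ND, 1 in control HFD, 1 in batch 2 cKO ND and 0 in cKO HFD. The acinar cells lower the control ND share, and shares without them were not computed.

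**Figure D1:**
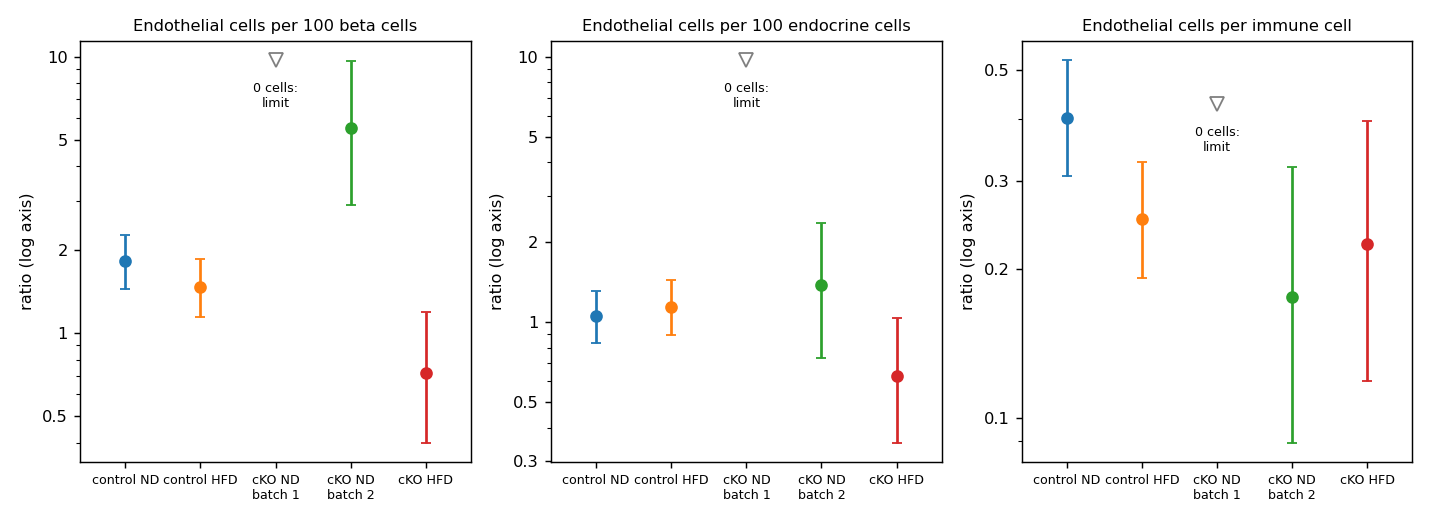
Endothelial cells per 100 beta cells, per 100 endocrine cells and per immune cell in each library, on log axes; points are ratios of cell numbers, bars are exact 95% counting intervals, and the open triangle is the limit that 0 endothelial cells allow in the 40-cell library. The batch 2 cKO ND library is the highest per beta cell (5.51 per 100) and the lowest of the 4 libraries with endothelial cells per immune cell (0.176).

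In control mice, the number of endothelial cells relative to beta cells did not differ between diets beyond counting error. High-fat feeding is known to enlarge the beta cell compartment, and this comparison set endothelial numbers beside it in mice with intact Atf6a. The log2 ratio of HFD over ND was -0.31 per beta cell (95% counting interval -0.79 to 0.18) and 0.12 per endocrine cell (-0.36 to 0.60). Against all other cells it was 0.09 (-0.39 to 0.57). Relative to each of the other endocrine types there were more endothelial cells on the high-fat diet, but those types were themselves fewer in that library. Control HFD held 773 alpha, 434 delta and 147 PP cells among 6667 cells, and control ND 1925, 945 and 324 among 7998. There were 9.18 per 100 alpha cells in control HFD and 4.16 in control ND, a log2 ratio of 1.14 (0.65 to 1.64). Per 100 delta cells the values were 16.4 and 8.47 (log2 ratio 0.95, 0.44 to 1.46), and per 100 PP cells 48.3 and 24.7 (0.97, 0.40 to 1.53). Against immune cells they were less frequent on the high-fat diet (-0.68, -1.23 to -0.12), and against cells annotated as neuron there were 0.602 per cell in control HFD and 6.67 in control ND (-3.47, -4.57 to -2.45), the latter over 12 neuron cells. Of 6 single cell types used as denominator, 3 gave a higher and 3 a lower value on the high-fat diet. Both libraries were of batch 1, and with 1 library a group there is no test across mice.

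The value per immune cell depended on which immune cells were counted. In the deposited embedding, a 2-dimensional UMAP map in which cells with similar expression are placed together, 558 of the 629 immune cells formed 1 large group and 65 formed a second group. The median distance to the nearest beta cell was 0.0904 embedding units in the second group and 0.752 in the large one, and 31.1% of the 15 nearest cells of the second group were beta cells. The second group held 50 of the 199 immune cells of control ND and 14 of the 282 of control HFD, and none of the 67 of cKO HFD or the 74 of batch 2 cKO ND. With the immune cells of the large group alone, there were 0.556 endothelial cells per immune cell in control ND and 0.265 in control HFD, a log2 ratio of -1.07 (-1.64 to -0.50). With the same immune cells the log2 ratio of cKO over control was -1.66 on normal diet (-2.72 to -0.69) and -0.22 on the high-fat diet (-1.22 to 0.71), and that of HFD over ND in cKO mice was 0.37 (-0.92 to 1.67). This alternative was chosen after the data were seen.

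On the high-fat diet, where both genotypes came from batch 1, endothelial cells were less frequent in the cKO library relative to beta cells. The 15 endothelial cells of cKO HFD stood against 2093 beta cells and the 71 of control HFD against 4841, a log2 ratio of -1.03 (-1.95 to -0.21), or 2.05-fold fewer. Per endocrine cell the log2 ratio was -0.86 (-1.78 to -0.04), and against all other cells it was -0.82 (-1.74 to -0.004). Against the other types the log2 ratio was 0.37 for alpha cells (-0.58 to 1.25), -0.48 for delta cells (-1.44 to 0.40), -0.09 for PP cells (-1.17 to 0.94), -0.17 for immune cells (-1.17 to 0.76) and 0.25 for neurons (-0.91 to 1.38). Among the 6 single types, the interval excluded 0 for beta cells alone. For the other 5 types it included 0, which with 15 cells in cKO HFD does not show equal numbers.

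The number per beta cell on the high-fat diet remained lower in the cKO library when beta cluster 9 was left out of the beta cells, but no longer beyond counting error. With this cluster the beta cells numbered 2093 in cKO HFD and 4841 in control HFD, and without it 1609 and 4783. The cluster was a larger part of the cKO HFD beta cells, so leaving it out can only raise the cKO value relative to control. Without it there were 0.932 endothelial cells per 100 beta cells in cKO HFD (0.521 to 1.54) and 1.48 in control HFD (1.16 to 1.88). The log2 ratio was then -0.67 (-1.59 to 0.15), and per endocrine cell it was -0.55 (-1.46 to 0.27).

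**Figure D2:**
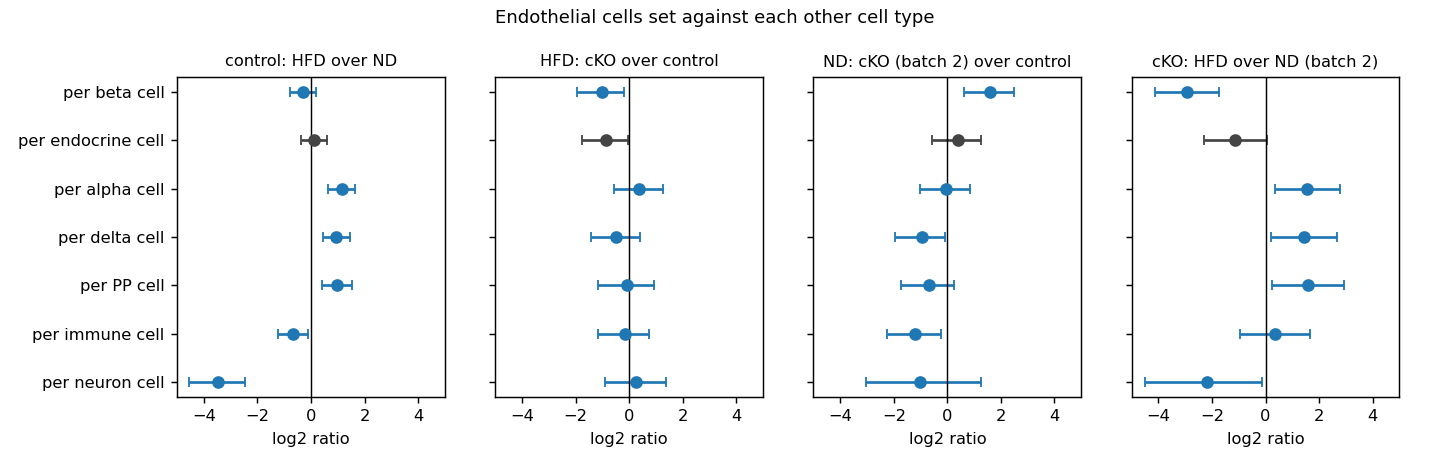
Log2 ratio of endothelial cell numbers between 2 libraries, set in turn against beta, all endocrine, alpha, delta, PP, immune and neuron cells, for 4 comparisons; points are log2 ratios and bars 95% exact conditional counting intervals, with the sum of endocrine types in dark grey. In control mice the value runs from -3.47 (per neuron) to 1.14 (per alpha cell), and for cKO over control on the high-fat diet from -1.03 (per beta cell) to 0.37 (per alpha cell).

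On normal diet the genotypes could be compared only across batches. The batch 2 cKO ND library had more endothelial cells per beta cell than control ND (log2 ratio 1.60, 0.61 to 2.48) but not per endocrine cell (0.39, -0.58 to 1.25) or per alpha cell (-0.04, -1.03 to 0.83) beyond counting error. Endothelial cells were less frequent in it relative to delta cells (-0.96, -1.95 to -0.08) and immune cells (-1.19, -2.25 to -0.23). The value was -0.69 for PP cells (-1.73 to 0.25) and -1.04 for neurons (-3.03 to 1.27). Of 6 types, 1 gave a higher and 5 a lower value in the cKO library. Within batch 1 no ratio could be formed, because the limit of 9.68 per 100 beta cells for the 40-cell library lies above the control value of 1.82. Genotype and batch cannot be told apart in this comparison.

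Between diets in cKO mice, the 15 endothelial cells of the HFD library and the 13 of batch 2 ND stood against a very different mix of endocrine cells. The HFD library held 2093 beta, 126 alpha, 128 delta and 33 PP cells, and batch 2 ND 236, 322, 298 and 85. The log2 ratio of HFD over ND was -2.94 per beta cell (-4.13 to -1.73) and -1.13 per endocrine cell (-2.31 to 0.07). It had the opposite sign against alpha cells (1.56, 0.34 to 2.79), delta cells (1.43, 0.20 to 2.66) and PP cells (1.57, 0.22 to 2.92). Per immune cell it was 0.35 (-0.94 to 1.65), and per neuron -2.19 (-4.48 to -0.12), where 4 neurons in the ND library set the value. Higher values were thus seen for 4 and lower values for 2 of the 6 types. Diet and batch cannot be told apart here.

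The diet ratio of cKO mice divided by that of control mice, called the ratio of diet ratios, was negative on the log2 scale against beta cells (-2.63, 95% delta-method interval -3.82 to -1.45) and against endocrine cells (-1.25, -2.43 to -0.08). Without beta cluster 9 the value was -2.56 per beta cell (-3.75 to -1.37) and -0.999 per endocrine cell (-2.17 to 0.17). Against all other cells it was -1.16 (-2.33 to 0.01). The intervals per endocrine cell without cluster 9 and against all other cells included 0. Per immune cell it was 1.02 (-0.26 to 2.31). Against alpha, delta and PP cells it was 0.42 (-0.79 to 1.63), 0.48 (-0.74 to 1.69) and 0.60 (-0.73 to 1.94). Each of these values takes the batch 2 library as cKO ND.

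Pooling the 5 libraries by genotype or by diet was the test made over libraries, and a model of genotype and diet together was not fitted. The smallest two-sided exact permutation p that 3 libraries against 2 can give is 0.2. Endothelial cells per immune cell had a mean of 0.133 in the 3 cKO libraries and 0.327 in the 2 control libraries, a difference of -0.19, and the groups did not overlap (two-sided exact permutation p = 0.2, Benjamini-Hochberg adjusted p = 1.0 over 6 tests). This separation includes the value of 0 from a library with 7 immune cells, whose limit of 0.429 lies above both control values. Per 100 beta cells the means were 2.08 in cKO and 1.64 in control libraries (exact permutation p = 1.0, adjusted p = 1.0), and per 100 endocrine cells 0.671 and 1.10 (exact permutation p = 0.6, adjusted p = 1.0). Between diets the groups overlapped for all 3 denominators, with exact permutation p from 0.8 to 1.0 and adjusted p of 1.0.

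The endothelial cells formed 1 compact island in the embedding, which held 2 cells of another type, both annotated as beta cells. Annotation and embedding both derive from the same expression data, so this separation is a description and no check of the annotation. Cells were counted as 1 island when each could be reached from the others by steps of at most 0.5 embedding units, and the longest step needed was 0.157. The median distance of a cell from the median position of the island was 0.272 units, and the 2 cells farthest from each other were 1.57 units apart. Among the other non-endocrine types, immune cells fell into 7 such islands with 88.7% in the largest, acinar cells into 5 with 71.2%, and neurons into 3 with 98.7%. Their median distances were 0.740, 0.282 and 0.281 units.

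The nearest cell outside the island was an immune cell at 2.06 units, and 70 immune cells lay within 3 units of an endothelial cell. The nearest beta cell outside it was at 2.09 units, and 5 beta cells outside the island lay within 3 units. The nearest neuron was at 3.80, the nearest alpha cell at 4.27, the nearest delta cell at 5.84, the nearest PP cell at 6.86 and the nearest acinar cell at 8.62 units. The 2 beta cells within the island were both of cluster 1, one from control HFD at 0.00929 units from the nearest endothelial cell and one from control ND at 0.0771 units. Of the 15 nearest cells of each endothelial cell, 98.9% were endothelial, and the 29 exceptions among 2685 neighbours were all these beta cells. No endothelial cell had fewer than 14 endothelial cells among its 15 nearest. For comparison this share was 94.3% in immune cells, 86.8% in neurons and 82.6% in acinar cells. Counting both beta cells as endothelial moved the control HFD over ND log2 ratio per beta cell from -0.308 to -0.306.

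**Figure D3:**
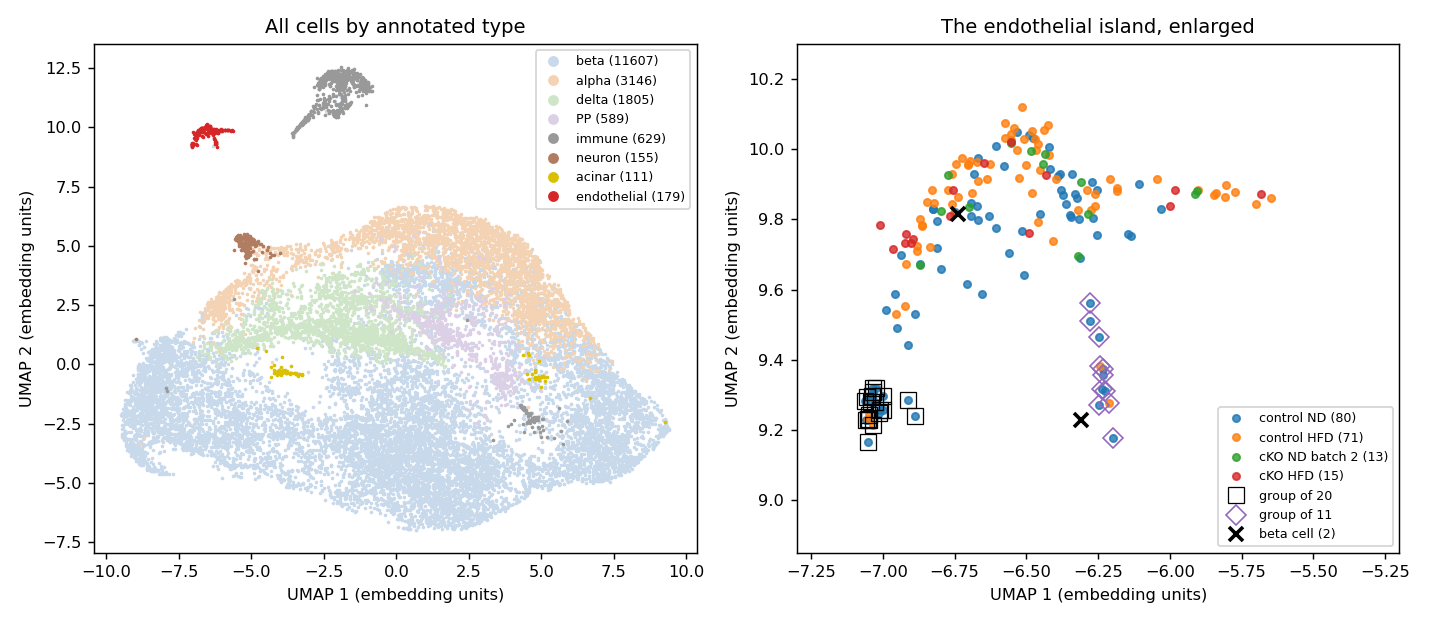
The deposited UMAP embedding of all 18221 cells by annotated type (left) and the endothelial island enlarged and coloured by library (right), both axes in embedding units; squares mark the group of 20 cells that separates at steps of 0.15, diamonds the group of 11 that separates at 0.1, and crosses the 2 beta cells. The 13 and 15 cells of the cKO libraries lie in the upper part of the island, and 32 of the 80 control ND cells lie below 9.6 on UMAP 2.

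Inside the island the libraries were not spread alike. Along UMAP 2 the control ND cells had a median of 9.74 (lowest 9.17, highest 10.05), the control HFD cells 9.88 (9.21 to 10.12), the batch 2 cKO ND cells 9.88 (9.67 to 10.02) and the cKO HFD cells 9.81 (9.72 to 10.02). The control ND cells reached far down and the cKO cells did not. Below 9.6 lay 32 of the 80 control ND cells, or 40% (29.2 to 51.6%), and 7 of the 71 control HFD cells, or 9.86% (4.06 to 19.3%). None of the 13 cells of batch 2 cKO ND was there, which allows up to 23.1%, and none of the 15 of cKO HFD, which allows up to 20%. The boundary was set after the positions were seen, so these shares describe 1 library each and carry no test of a difference.

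At finer steps some cells of the lower part split from the rest, and others stayed joined to it. With steps of at most 0.15 units, 20 cells formed a group of their own around -7.03 on UMAP 1 and 9.27 on UMAP 2, and 17 of them were from control ND and 3 from control HFD. They were 21.3% of the control ND (12.9 to 31.8%) and 4.23% of the control HFD endothelial cells (0.880 to 11.9%). With steps of at most 0.1 there were 5 groups, among them 1 of 20 cells at the same median position and 1 of 11 around -6.24 and 9.36, of which 9 were from control ND and 2 from control HFD. No cell of a cKO library was in the 4 smaller groups, among 28 cKO endothelial cells in all (limit of 3 cells 10.7%, exact upper bound 12.3%). Both control libraries and the cKO HFD library were of batch 1. The steps of 0.15 and 0.1 were not among those planned. The longest step that joins the island was 0.157 and the next 0.133, so a step of 0.15 cuts the island at 1 place. These shares therefore describe 1 library each and carry no test of a difference.

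At the right end of the island, control ND cells were a small part. To the right of -6.1 on UMAP 1 lay 15 cells, of which 9 were from control HFD, 3 from cKO HFD, 2 from batch 2 cKO ND and 1 from control ND. This was 12.7% of the control HFD cells (5.96 to 22.7%), 20% of cKO HFD (4.33 to 48.1%), 15.4% of batch 2 cKO ND (1.92 to 45.4%) and 1.25% of control ND (0.0316 to 6.77%). The intervals of these shares overlapped. This boundary was also set after the positions were seen. Control ND cells at -6.11, -6.13 and -6.14 lay just to the left of it, so the control ND share depends on where it is set.

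The median distance of a library's cells from their own median position was 0.331 units in control ND, 0.230 in control HFD, 0.220 in batch 2 cKO ND and 0.230 in cKO HFD. The library medians lay 0.113, 0.0519, 0.121 and 0.204 units from the median of all 179 cells, each less than the spread within that library. Between libraries the medians lay from 0.0937 (batch 2 cKO ND and control HFD) to 0.323 units apart (cKO HFD and batch 2 cKO ND). The largest of these distances exceeded the spread within either library.

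**Figure D4:**
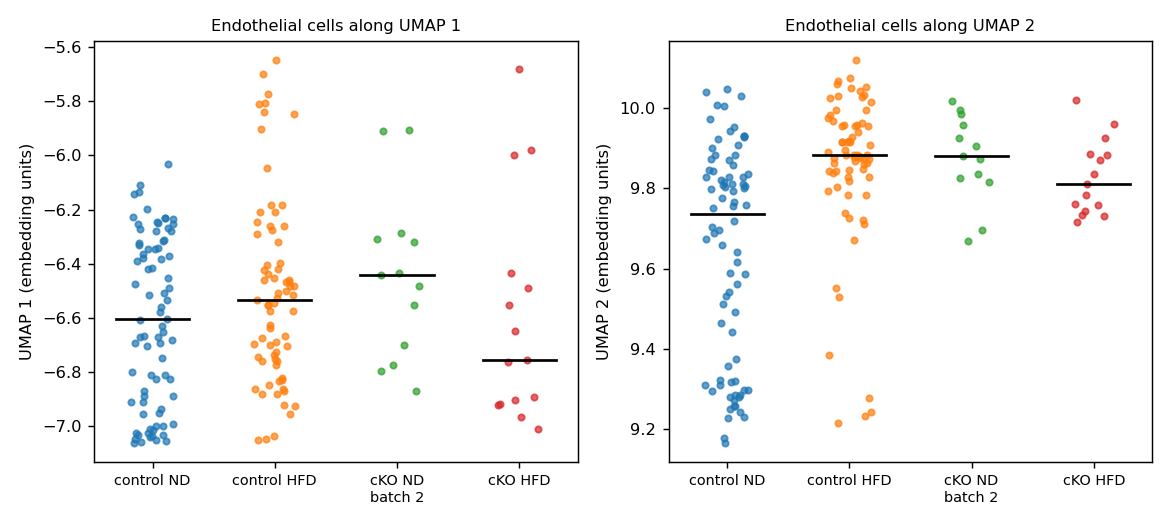
Position of each endothelial cell along UMAP 1 (left) and UMAP 2 (right) in embedding units, by library; points are cells, shifted sideways at random for visibility, and lines are medians. On UMAP 2 the control ND median is 9.74 and the other 3 medians lie between 9.81 and 9.88.

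Endothelial cells of the 4 libraries lay next to each other, with some excess of neighbours from the same library. Among the 10 nearest endothelial cells of a control ND cell, 58.3% were from control ND, where the library numbers alone give 44.4%, a ratio of 1.31. The ratio was 1.20 for control HFD, 0.91 for batch 2 cKO ND and 2.29 for cKO HFD. For the 15 cells of cKO HFD this ratio rests on 18% of neighbours from their own library against 7.87% by numbers, and control ND cells were next to them at 0.52 times and control HFD cells at 1.25 times their number. Neighbours of batch 2 cKO ND cells were control HFD cells at 1.29 times and control ND cells at 0.75 times their number. By median position, batch 2 cKO ND was nearer to control HFD (0.0937 units) than to control ND (0.220), whereas cKO HFD was nearer to control ND (0.168) than to control HFD (0.234). With 13 and 15 cells these placements carry no interval.

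Leaving out the lower group changed the ratios in a direction set by its makeup. Of its 20 cells, 17 were from control ND and 3 from control HFD, with no cKO cell. Their removal can thus only raise HFD over ND in control mice and cKO over control. This alternative was not planned and carries no test. Without the 20 cells that separate at steps of 0.15, the control HFD over ND log2 ratio was -0.03 per beta cell (-0.55 to 0.50) and -0.39 per immune cell (-0.98 to 0.20), so that the interval per immune cell then included 0. The same held for cKO over control on normal diet per immune cell (-0.85, -1.92 to 0.13) and for cKO over control on the high-fat diet per endocrine cell (-0.80, -1.72 to 0.02).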

How the data were processed

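Single-cell 5′ RNA libraries of islet cells were made on the 10x Genomics platform, per the labels' protocols. Cell Ranger 7.1.0 and build GRCm39 are named in the submitters' processing notes. The sources used here do not give the cell filters, doublet removal, integration, clustering, embedding settings or the rule that named cell types, and these steps precede every value. Doublets were not called here. The authors deposited library, cell type and cluster labels and embedding positions per cell, the positions being a score without unit, per the file headers. The 4 tables were joined by cell identifier. Library names were matched to sample titles by genotype, diet and number, and the number in the cKO ND names was read as the batch number. The identifiers of both cKO ND libraries carry the same suffix. Of the cell barcodes, 140 occurred in more than 1 library, 4 of them endothelial, and the partner was an alpha cell in 2 cases and a beta cell in 2.

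Ratios of cell numbers carry exact (Clopper-Pearson) 95% intervals, transformed from the share. A count of 0 was given a limit of 3 cells over the denominator, which is lower than the exact upper bound. Ratios between libraries carry the exact conditional interval of the odds ratio, and ratios of ratios a delta-method interval. Libraries of under 100 cells entered no ratio between groups. No p-value was computed from cells, and cKO ND alone has more than 1 library. Python 3.11.15, SciPy 1.17.1, pandas 2.3.3 and Matplotlib 3.10.9 were used, and the interval and island code was tested on simulated data. No genes are named as results. The cells, denominators and settings were chosen with earlier results of these data known.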

Additional observations from a re-analysis of the deposited data

Results flagged for a closer look

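Between the libraries compared, the diet difference in endothelial numbers had opposite signs in the 2 genotypes, or the genotype difference opposite signs on the 2 diets, for all 3 denominators, but several of these signs are within counting error. Per beta cell, cKO over control was above 0 on normal diet (log2 ratio 1.60, 0.61 to 2.48) and below 0 on the high-fat diet (-1.03, -1.95 to -0.21), and the ratio of diet ratios was -2.63 (-3.82 to -1.45). Per endocrine cell, HFD over ND was 0.12 in control (-0.36 to 0.60) and -1.13 in cKO libraries (-2.31 to 0.07), with intervals that include 0, and the ratio of diet ratios was -1.25 (-2.43 to -0.08). Per immune cell the diet values were -0.68 (-1.23 to -0.12) and 0.35 (-0.94 to 1.65), and the ratio of diet ratios was 1.02 (-0.26 to 2.31). These differences were not tested across libraries, and batch 2 alone stands for cKO ND in them.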

How the results depend on the processing

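Of 171 alternative values, 75 equal the value reported and say nothing about its stability. Among them are those that keep the largest island (all cells lie in it) or leave out the 40-cell library from ratios it never entered. Others of the 75 change only the interval. Of the other 96, 81 stayed within the interval or range reported or on the same side of the test. Counted separately over all 171, the interval came to include 0 in 9 cases and to exclude it in 2. These cases include values that stayed within the interval reported and a case where only the interval changed. With all other cells as denominator in place of beta cells, cKO over control on normal diet was 0.34, cKO HFD over ND -1.07 and the ratio of diet ratios -1.16, each with an interval that included 0. The equal-weight mean of both cKO ND libraries lowers the cKO ND value, since 1 of them is at 0. Per beta, endocrine and immune cell, cKO over control on normal diet was then 0.60, -0.61 and -2.19, cKO HFD over ND -1.94, -0.13 and 1.35, and the ratio of diet ratios -1.63, -0.25 and 2.02. With the large immune group alone the ratio of diet ratios per immune cell was 1.44 (0.15 to 2.73). A delta-method interval for cKO HFD over ND per endocrine cell excluded 0 (-2.21 to -0.06), with the value itself unchanged.

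In the pooled test, leaving out each cKO ND library in turn (the 40-cell library or batch 2) gave genotype differences of 1.47 and -1.28 per 100 beta cells, -0.0935 and -0.784 per 100 endocrine cells, and -0.127 and -0.215 per immune cell. The diet differences were -2.57 and 0.184 per 100 beta cells, -0.329 and 0.362 per 100 endocrine cells, and -0.0510 and 0.0368 per immune cell, so that these signs depended on single libraries. Mean ranks gave a genotype difference of -0.833 ranks per beta cell. The endothelial cells formed 1 island at steps of 0.25 and 1.0, but 2 at 0.15 and 5 at 0.1. As root mean square the spread was 0.406 in control ND, 0.394 in control HFD, 0.312 in batch 2 cKO ND and 0.408 in cKO HFD, so that control ND was no longer the widest. Same-library neighbours in cKO HFD were 3.56 times their number among the 5 nearest endothelial cells and 1.61 times among the 20 nearest. The cause of these changes was not tested. No ratio without the batch 2 library was possible, because the 40-cell library has no endothelial cell. No paired analysis was possible because only 1 group has more than 1 library. With 13 and 15 endothelial cells in the cKO libraries, counting error is large in the cKO ratios.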
